A study of Mus musculus with 13 samples.

Results

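All libraries of socially defeated mice were compared with all control libraries of the same study, across both viruses and both sexes. The comparison took in 6 defeated and 7 control libraries, which are all 13 of the 13 in the series, and 17755 of the 26264 genes in the table. A gene entered when at least 2 of the 13 libraries reached 10 normalized counts, and virus was a term in the fit because it was unevenly spread over the 2 sets. Each library held bulk RNA from punches of the ventral tegmental area (VTA) of mice of the strain labelled C57BlJ/6, taken in adulthood. Every mouse had received a virus into the VTA at postnatal day 14, which carried either Setd7 or GFP, so the controls were injected too.

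The defeated set held 2 libraries with Setd7 virus and 4 with GFP virus, from 3 females and 3 males. The control set held 4 libraries with Setd7 virus and 3 with GFP virus, from 3 females and 4 males. Defeated mice had been exposed to social defeat stress as adults, and control mice had not. The labels name neither the promoter of the virus, nor the cells it entered, nor the length of the defeat. They do not say whether a library is 1 animal, so p-values measure only the spread between these libraries. For the defeated female with Setd7 virus (Setd7 defeat replicate 1), the data column gives the library number of the title followed directly by a second number of the same form. The labels do not say whether 2 libraries or 2 animals were joined in it.

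The VTA is a midbrain area whose dopamine neurons project to the nucleus accumbens and prefrontal cortex and carry signals of reward and aversion. They lie among GABA neurons, glutamate neurons, myelinated fibres and glia, all of which a punch collects. Social defeat exposes a mouse to a dominant aggressor, and the firing of VTA dopamine neurons is known to bear on whether a mouse becomes socially avoidant afterwards. SETD7 is a lysine methyltransferase that adds a single methyl group to histone H3 at lysine 4 and also methylates other proteins.

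Recovered reads were 30.9 to 48.1 mega-reads (M) in defeated libraries and 26.5 to 50.8 M in control libraries. The ribosomal precursor Rn45s took 2.27 to 4.68% of reads in defeated and 2.16 to 4.06% in control libraries. Setd7 itself, the overexpressed gene, ranged from 10888 to 123133 normalized counts in defeated and from 13480 to 158681 in control libraries, with virus in the fit a log2 fold change of 0.07 ± 0.31 (SE). The dopamine synthesis enzyme gene Th and the dopamine transporter gene Slc6a3 were present in every library, so the defining markers of the labelled tissue were not absent. Their levels varied widely within both sets. Th had a lowest value of 2539, a median of 10757 and a highest value of 17550 normalized counts in defeated libraries, against 2508, 9801 and 19110 in control libraries. Slc6a3 had 5051, 25600 and 36158 in defeated libraries, against 4914, 21452 and 45560 in control libraries. Tcf7l2, a transcription factor abundant in the thalamus, had 982, 1367 and 6575 in defeated libraries, against 949, 1320 and 9559 in control libraries. The libraries lowest in Th were GFP defeat replicate 1 and GFP control replicates 2 and 3, and those highest in Tcf7l2 were GFP defeat replicate 4 and the same 2 controls. The gene lists below are therefore also described without these libraries. In bulk tissue, fewer cells of a type and less RNA per cell cannot be told apart.

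No gene passed the threshold of 0.05 for the adjusted p by limma, so the share called was 0% of genes tested. The smallest adjusted p was 0.148, and edgeR on the recovered reads also called 0 genes, with a smallest adjusted p of 0.129. DESeq2 on the same reads called 5 genes, 3 higher and 2 lower, which is 0.0283% of the genes it gave an adjusted p. At an unadjusted p under 0.05, limma counted 486 genes higher in defeated mice (2.74%) and 623 lower (3.51%), 1109 in all, where 887.75 would be expected with no difference. edgeR counted 1087 and DESeq2 1167 at an unadjusted p under 0.05. The median log2 fold change over all genes tested was 0.0007, and 50.2% of them were positive. The typical size of a difference was small, with a median absolute log2 fold change of 0.0852, and 35 genes with a mean of at least 30 normalized counts differed by more than 1 on the log2 scale. Genes and groups below are described by size and spread against this background, since none of them passed the adjusted test by limma.

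The lead gene was Sox1ot, a long noncoding RNA whose gene contains Sox1, the gene of a transcription factor of neural progenitors, on the same strand. Sox1ot had a lowest value of 458, a median of 624.5 and a highest value of 687 normalized counts in defeated libraries, against 345, 363 and 423 in control libraries. All 6 defeated libraries lay above all 7 control libraries, in females and males and with both viruses. The means were 591 ± 90.0 in defeated and 370 ± 25.1 in control libraries (SD), a log2 fold change of 0.67 ± 0.10 (SE), with an adjusted p of 0.148 by limma and 4.82e-06 by DESeq2. Without GFP defeat replicate 4, the defeated library with the lowest value, Sox1ot passed limma with an adjusted p of 0.0185. Leaving out the lowest defeated value widens the gap, and it passed with no other single library left out, so this is a description only. Sox1 averaged higher by 0.12 ± 0.06 on the log2 scale, with 1240, 1302 and 1393 normalized counts in defeated libraries, against 1064, 1226 and 1308 in control libraries, and its 2 sets overlapped. Reads in the stretch that the transcripts share cannot be told apart.

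The next gene was Fzd2, a Frizzled receptor for Wnt ligands. Its lowest, median and highest values were 727, 907 and 1344 normalized counts in defeated libraries, against 585, 711 and 818 in control libraries. The control range took in 1 defeated library, and the highest value belonged to Setd7 defeat replicate 1. The log2 fold change was 0.51 ± 0.09, with an adjusted p of 0.687 by limma and 0.00252 by DESeq2, and it was 0.41 without that library. Over all genes 50.2% were positive, and 2.74% were higher at an unadjusted p under 0.05. Of the 10 Frizzled genes tested, all 10 had a positive log2 fold change, with a median of 0.17, and 3 had an unadjusted p under 0.05. Besides Fzd2 these were Fzd9, at 394, 432 and 511 in defeated libraries against 263, 376 and 441 in control libraries (0.34 ± 0.10), and Fzd7, at 532, 660 and 854 against 435, 591 and 680 (0.30 ± 0.11). Fzd1 and Fzd3 stood at 0.02 and 0.03. The family was looked at after Fzd2 was seen, so its counts include the gene that prompted the look.

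Gelsolin (Gsn), which severs actin filaments and is abundant in oligodendrocytes, was the third gene DESeq2 called higher. It had 2755, 2896 and 3339 normalized counts in defeated libraries, against 1938, 2470 and 2933 in control libraries, with 3 defeated libraries inside the control range. Its log2 fold change was 0.36 ± 0.08, with an adjusted p of 0.795 by limma and 0.0351 by DESeq2. The other 9 genes with the smallest p among those higher were Carhsp1, Niban2, Taldo1, Adgra3, Rnf122, Vgf, Trf, Nkx2-9 and Ndn. Vgf, which encodes a secreted neuropeptide precursor, had 8285, 9926 and 12074 normalized counts in defeated libraries, against 7592, 7983 and 8690 in control libraries (0.26 ± 0.07). Only 1 defeated library lay within its control range. The RNA-binding cold-shock-domain gene Carhsp1 was at 2575, 2715 and 3018 in defeated libraries, against 2158, 2380 and 2711 in control libraries (0.23 ± 0.06). Nkx2-9, a homeobox gene of the ventral neural tube, was low in count and differed by 0.66 ± 0.18, with 171, 223 and 260 normalized counts in defeated libraries against 81.4, 142 and 206 in control libraries. The pentose phosphate enzyme gene Taldo1 differed by 0.26 ± 0.07, the ubiquitin ligase gene Rnf122 by 0.31 ± 0.08, and the imprinted gene Ndn (necdin) by 0.20 ± 0.06. Niban2 differed by 0.28 ± 0.07 and the adhesion receptor gene Adgra3 by 0.20 ± 0.05. Over the 12 genes, the fold ran from 1.15 to 1.59, and each had an adjusted p of 0.795 by limma beyond the first 2.

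Among genes lower in defeated mice, the smallest p belonged to Pisd-ps1, with Pisd-ps3 also among the first 4. Both are copies of Pisd, the gene of the mitochondrial phosphatidylserine decarboxylase, and are uncertain because they share sequence with it. Pisd-ps1 had 576, 704 and 796 normalized counts in defeated libraries, against 706, 880 and 1047 in control libraries. The sets overlapped in 3 defeated libraries, and the 3 highest values were those of GFP controls. The log2 fold change was -0.37 ± 0.07, with an adjusted p of 0.795 by limma and 0.0255 by DESeq2. Pisd-ps3 differed by -0.39 ± 0.09, while Pisd itself stood at 0.05 ± 0.05.

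Ttc14, a tetratricopeptide repeat gene, had 2177, 2419 and 2820 normalized counts in defeated libraries, against 2454, 2893 and 3648 in control libraries (-0.34 ± 0.08). Mbd6, which encodes a protein with a methyl-CpG-binding domain, had 657, 710 and 854 in defeated libraries, against 693, 944 and 1218 in control libraries (-0.42 ± 0.10). For Ttc14 the 3 GFP controls were the highest of the 13 libraries. The mitotic kinesin gene Kif22 was low at 47.8, 62.2 and 74.7 in defeated libraries, against 70.5, 93.7 and 125 in control libraries (-0.66 ± 0.16). Only 1 defeated library reached the control range. The largest sizes among the 12 were those of Neb, which encodes the thin-filament protein nebulin, and Col24a1, a fibrillar collagen gene, at -1.17 ± 0.30 and -1.14 ± 0.29. Neb had 43.5, 54.1 and 61.0 in defeated libraries, against 53.5, 98.9 and 279.8 in control libraries, and Col24a1 had 17.6, 48.3 and 53.0 against 34.9, 78.5 and 138. Both sets overlapped, and Neb stood at -0.59 without the libraries lowest in Th and -0.55 without those highest in Tcf7l2. The rest of the 12 were the Golgi membrane gene Tmem167 (-0.17 ± 0.04), the zinc finger repressor gene Zgpat (-0.30 ± 0.08), the liprin gene Ppfia1 (-0.21 ± 0.05), the RNA polymerase I factor gene Taf1d (-0.52 ± 0.14) and the protease gene Adamts20 (-0.28 ± 0.07). The fold over the 12 ran from 0.444 to 0.887. DESeq2 also called 4930447C04Rik lower, with 125, 150 and 175 in defeated libraries against 179, 220 and 297 in control libraries (-0.62 ± 0.13, adjusted p 0.0434 by DESeq2 and 0.795 by limma).

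**Figure D1:**
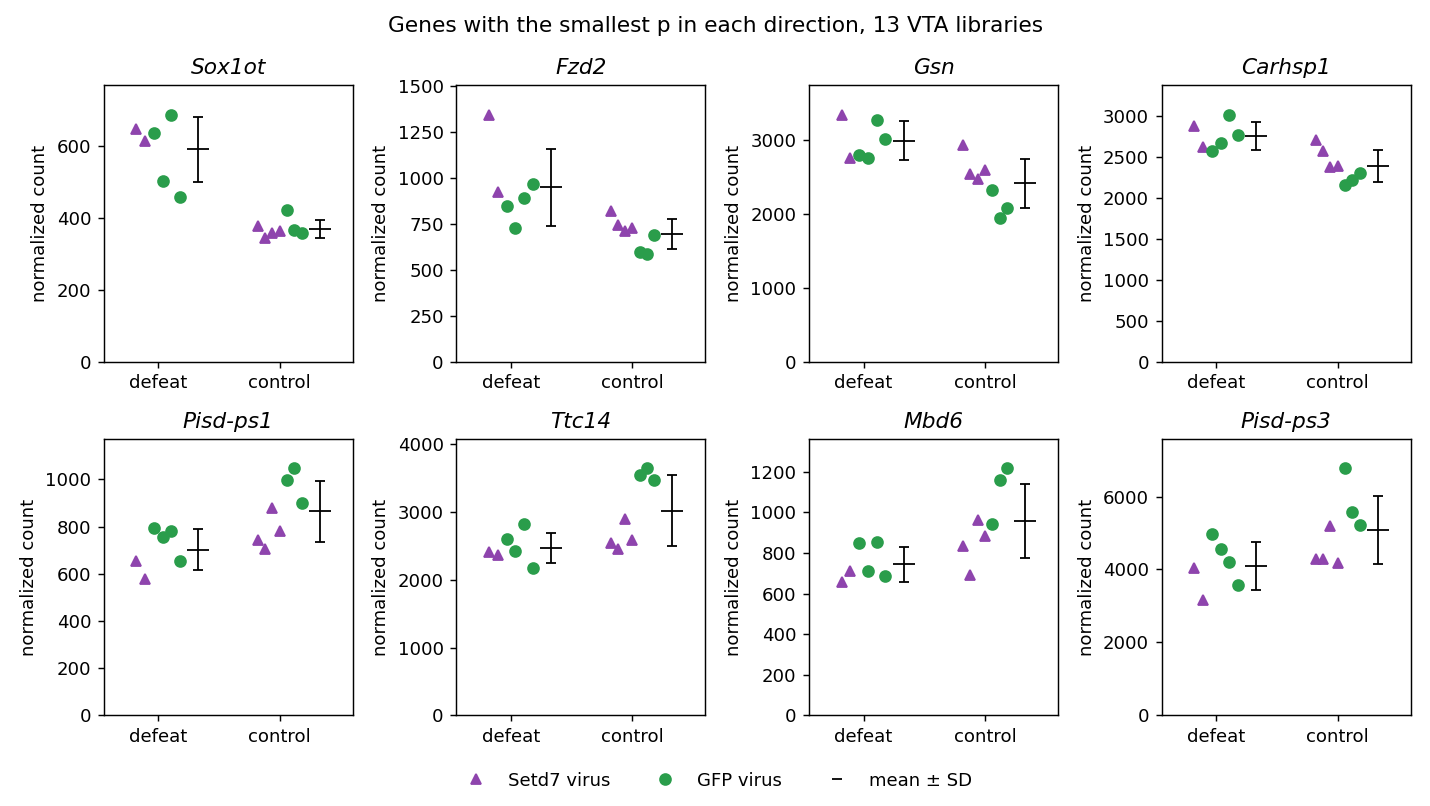
Normalized counts (vertical axes, from 0) of the 4 genes with the smallest p in each direction, for 6 defeated and 7 control libraries; triangles are Setd7 virus, circles GFP virus, and the bar is the mean ± SD. Sox1ot has no overlap between the sets (458 to 687 in defeated, 345 to 423 in control libraries), while the 4 lower genes reach their highest values in GFP controls.

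The 2 sets did not overlap at all for 15 genes. With 6 and 7 libraries, some genes would part fully with no difference between the sets. How many was not computed here, so a gap alone is not evidence of a difference. All defeated libraries were above all control libraries for 4 genes (0.0225% of those tested) and below them for 11 (0.062%). The higher ones were Sox1ot, Tmc6, Stmn1 and L3mbtl2. Stmn1, which encodes the microtubule-destabilizing protein stathmin, had 3268, 3482 and 4081 normalized counts in defeated libraries, against 2536, 3115 and 3263 in control libraries (0.22 ± 0.07). Its sets were parted by a narrow gap. Tmc6, a transmembrane channel-like gene, had 189.9, 207 and 237 in defeated libraries, against 127, 167 and 185 in control libraries (0.40 ± 0.12). L3mbtl2, a Polycomb group gene, had 1075, 1111 and 1305 against 871, 1029 and 1059 (0.19 ± 0.07). The lower ones with names were Taf1d, Nup37, Mpzl3, Sfxn4, Ppfia1, Tmem167, Slc51a and Tmem51os1, of which Slc51a and Tmem51os1 had a mean under 30 normalized counts. Taf1d had 84.2, 117 and 122 in defeated libraries, against 130.5, 145 and 195 in control libraries. Nup37, a nuclear pore gene, had 45.7, 62.3 and 65.0 against 69.2, 76.9 and 104 (-0.46 ± 0.16). Sfxn4, a sideroflexin gene of the mitochondrial membrane, had 272, 352 and 378 against 393, 409.8 and 447 (-0.31 ± 0.09), and Mpzl3 stood at -0.42 ± 0.16. None of these 15 passed limma, with adjusted p of 0.148 for Sox1ot and 0.795 for the other named ones with a mean of 30 or more.

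The 24 genes with the smallest p were then fitted within each virus and within each sex, as a description, since the same libraries had chosen them. All 12 higher genes were positive and all 12 lower genes negative in both viruses and in both sexes. The size was smaller with Setd7 than with GFP virus for 9 of the 12 higher and 11 of the 12 lower genes. Sox1ot stood at 0.80 with Setd7 and 0.56 with GFP virus, and at 0.63 in females and 0.68 in males. Ttc14 stood at -0.13 with Setd7 and -0.51 with GFP virus, and Neb at -0.42 with Setd7 and -1.76 with GFP virus. The differences between viruses and between sexes were tested across all genes with interaction terms, and limma called 0 genes for either. The smallest adjusted p was 0.954 for virus, where 858 genes (4.83%) had an unadjusted p under 0.05, and 0.656 for sex, where 780 did (4.39%). Both counts lay below the 887.75 expected with no difference.

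**Figure D2:**
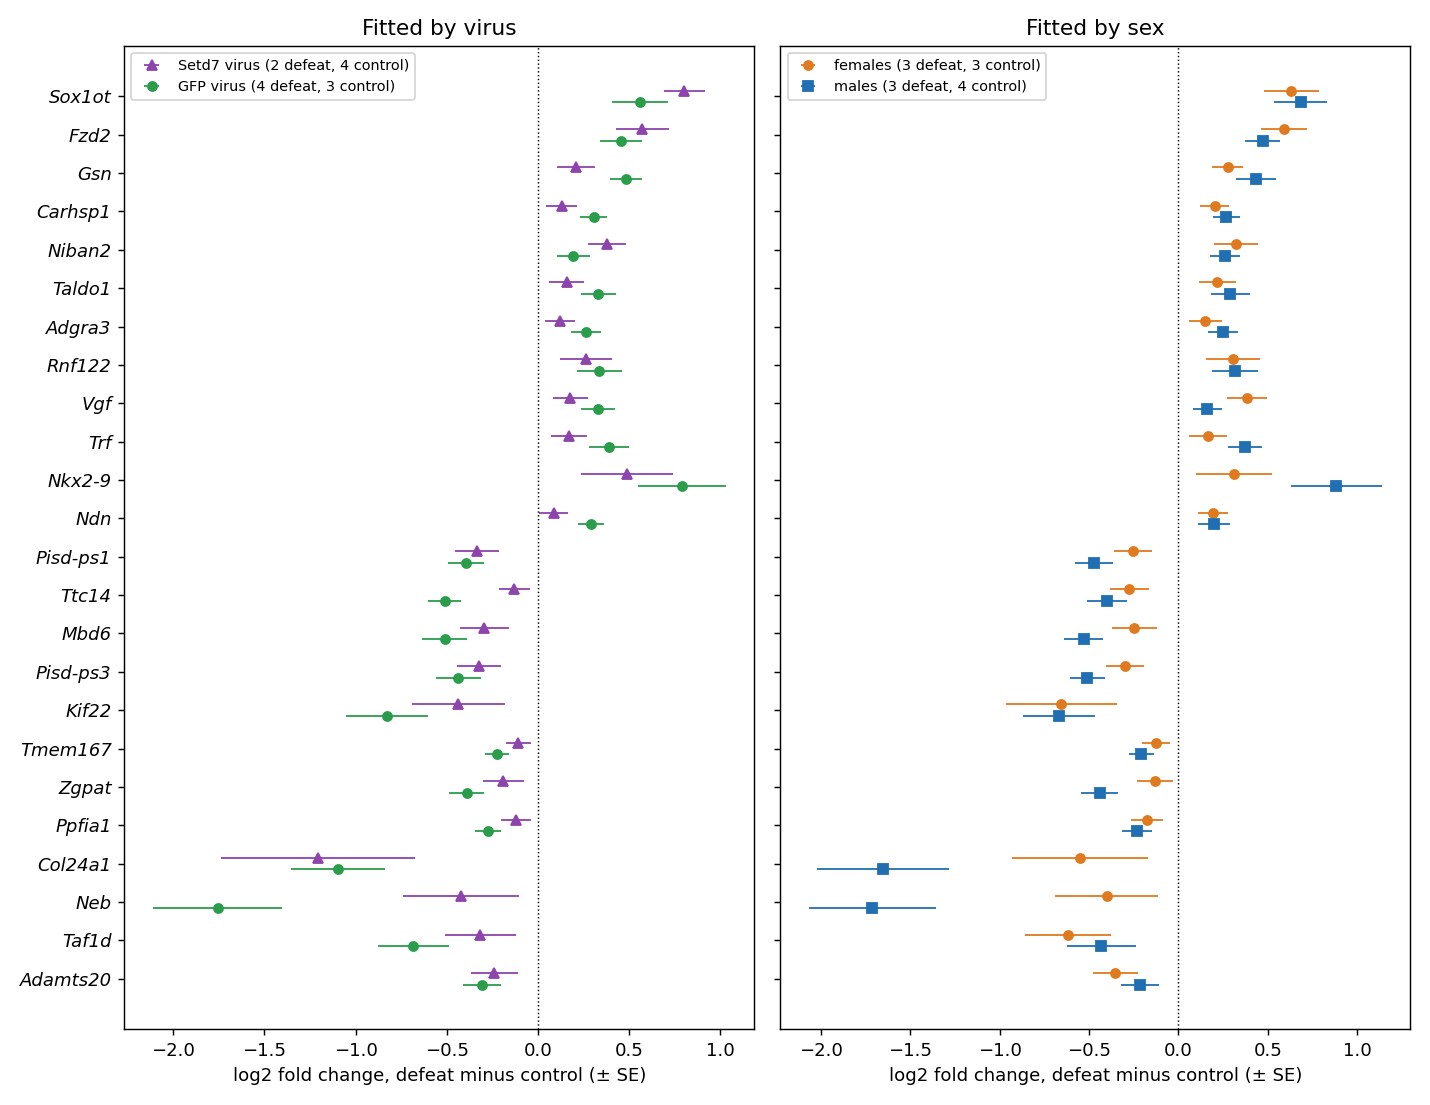
Log2 fold change, defeat minus control, with its SE (horizontal axes) of the 24 genes with the smallest p, fitted within each virus (left) and each sex (right). Every point lies on the side of 0 that the pooled fit gave; Neb stands at -0.42 with Setd7 and -1.76 with GFP virus.

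For sex, the gene with the smallest p was Ide, the gene of the insulin-degrading enzyme, with a log2 fold change of -0.55 in females and 0.41 in males and a difference, female minus male, of -0.93 ± 0.15. Btaf1, Daam2 and Glra3 were also negative in females and positive in males, with differences of -0.57 ± 0.12, -0.45 ± 0.10 and -0.72 ± 0.16. Rabep2 was the other way round, at 0.38 in females and -0.34 in males. For virus, H2ac6, a histone H2A gene, stood at -0.51 with Setd7 and 1.20 with GFP virus, a difference of -1.71 ± 0.39. Tspyl3, Ndufc2 and Plpp2 had differences, Setd7 minus GFP, of -0.49 ± 0.11, -0.55 ± 0.13 and -0.84 ± 0.20, and Fam163a one of 0.83 ± 0.20. None of these 10 passed the adjusted test by limma.

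Genes were also read in 35 lists. Of these, 22 had a positive median log2 fold change, 5 had a median of more than 0.3 in size, and 0 had a member past the adjusted threshold by limma. Counts of list members below are at an unadjusted p under 0.05, where 2.74% of all genes were higher and 3.51% lower. Leaving out either set of 3 libraries keeps GFP control replicate 1 as the only GFP control. Over all genes the counts then fell too, to 263 higher and 363 lower without the 3 lowest in Th. Without the 3 highest in Tcf7l2 they were 260 and 323. Whether smaller list counts in these settings reflect the libraries lost was not tested.

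**Figure D3:**
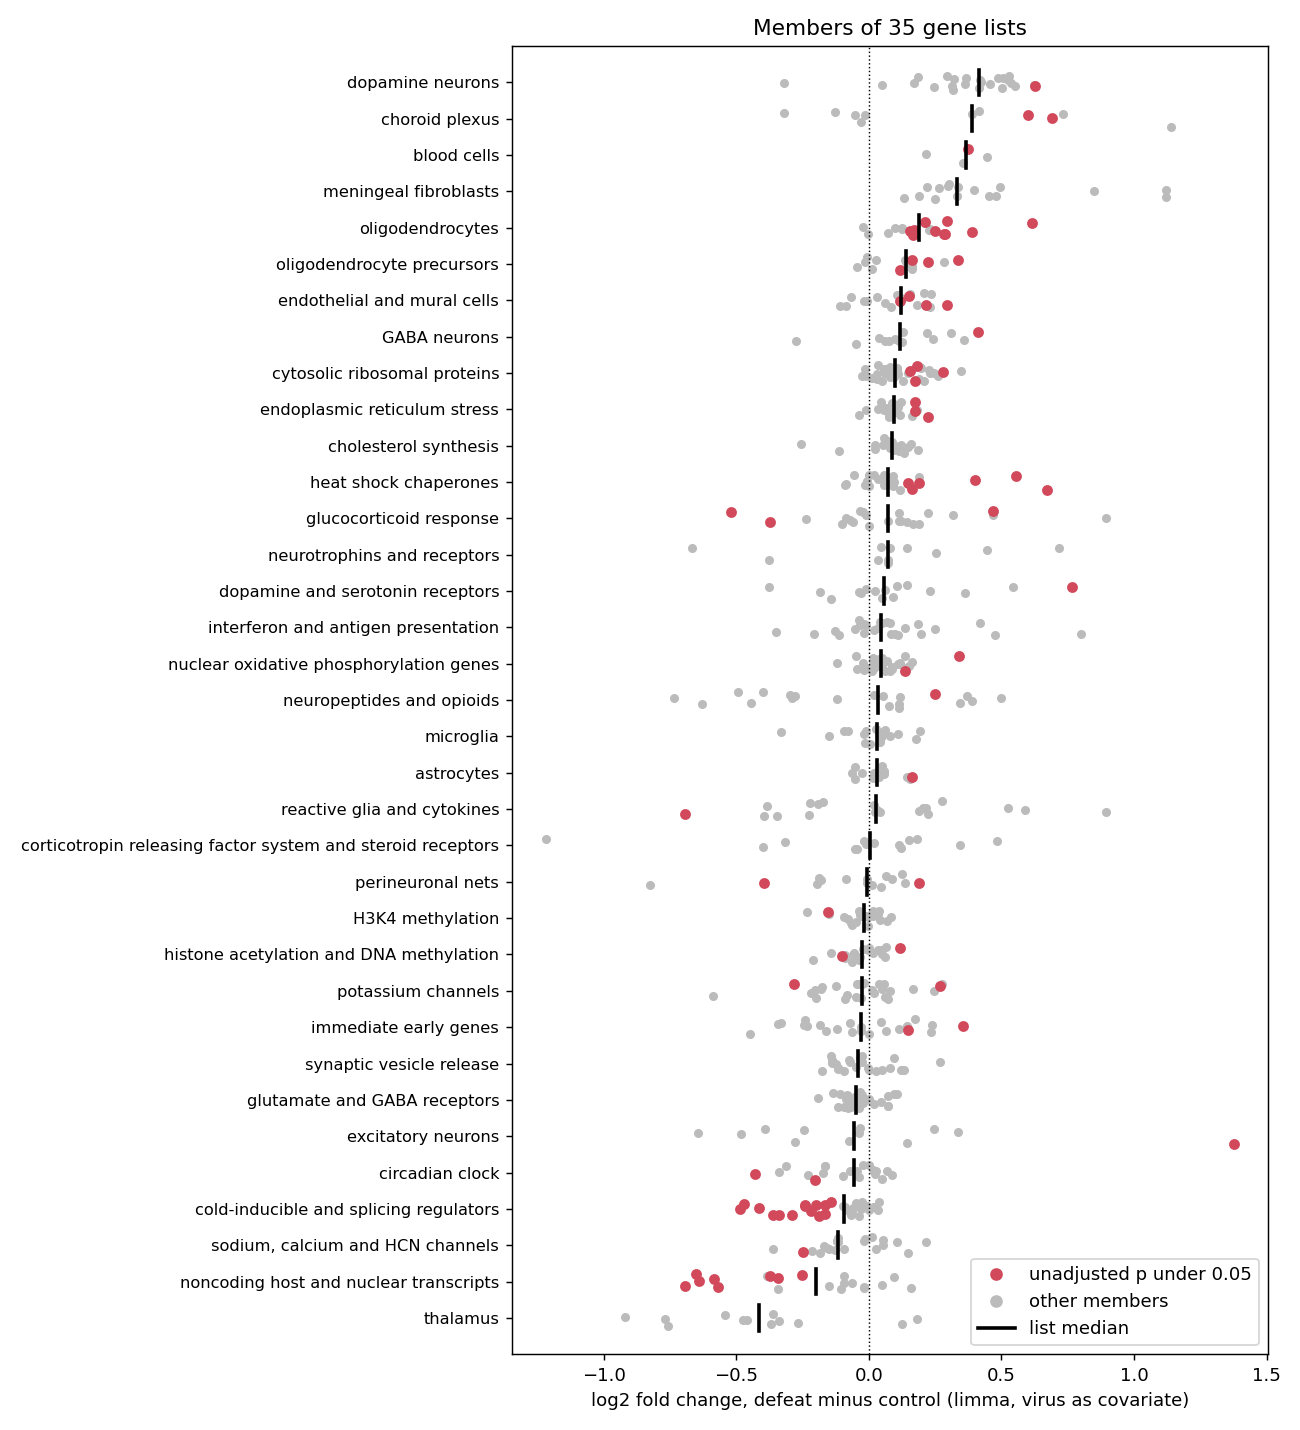
Log2 fold change, defeat minus control (horizontal axis), of each tested member of 35 gene lists, ordered by list median (black bar); red points have an unadjusted p under 0.05. Red points gather to the right in the oligodendrocyte list (10 of 20) and to the left in the splicing (14 of 30) and noncoding (8 of 20) lists. Part of the splicing list came from genes seen to differ in an earlier result on the GFP libraries, so its side is not independent evidence. Without GFP control replicate 2, the oligodendrocyte count was 1.

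The lists of cell types came first. Dopamine neuron genes were positive for 23 of 24, with a median of 0.42, and 1 was counted as higher. That gene was Gch1, which encodes the first enzyme of tetrahydrobiopterin synthesis, with 465, 1174 and 1460 normalized counts in defeated libraries, against 345, 849 and 1330 in control libraries (0.63 ± 0.29). Th stood at 0.46 ± 0.42 and Slc6a3 at 0.51 ± 0.45, and both sets overlapped throughout. The list's median was -0.09 with Setd7 and 0.80 with GFP virus, and -0.24 in females and 0.90 in males. It was 0.03 without the 3 libraries lowest in Th, -0.15 without the 3 highest in Tcf7l2, 0.23 without GFP defeat replicate 4 and 0.20 without GFP control replicate 3. The summed level of the list ran from 47989 to 180105 normalized counts in defeated and from 41921 to 187712 in control libraries.

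Thalamus genes were negative for 10 of 12, with a median of -0.41 and 0 counted, and Tcf7l2 stood at -0.77 ± 0.49. The list's sum ran from 16204 to 34675 in defeated and from 15914 to 57864 in control libraries, and its median was -0.79 without GFP defeat replicate 4, 0.02 without GFP control replicate 2 and -0.66 without GFP control replicate 1. It was 0.06 without the 3 libraries lowest in Th and -0.08 without the 3 highest in Tcf7l2, with 1 counted as higher in each case. GABA neuron genes were positive for 12 of 14, with a median of 0.12. The 1 counted as higher was Gata2, a transcription factor gene of midbrain GABA neurons, with 397, 586 and 648 normalized counts in defeated libraries, against 282, 470 and 488 in control libraries (0.41 ± 0.15). Most defeated libraries lay above every control library. The median of the GABA list was 0.11 without the 3 libraries lowest in Th, with 1 counted, and 0.10 without the 3 highest in Tcf7l2, with 0 counted, and it was -0.04 in females and 0.22 in males. Excitatory neuron genes had a median of -0.06 over 12. The 1 counted was Slc17a8, the vesicular glutamate transporter 3 gene, whose values spread widely, with 309, 988 and 2443 in defeated libraries, against 72.1, 275 and 1504 in control libraries (1.38 ± 0.60, at 2.74 with Setd7 and 0.31 with GFP virus). The median of the excitatory list ran from -0.26 to 0.01 with single libraries left out, lowest without Setd7 defeat replicate 2 and highest without Setd7 defeat replicate 1. It was -0.09 without the 3 libraries lowest in Th and -0.04 without the 3 highest in Tcf7l2, with 1 counted as higher in each case.

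Oligodendrocyte genes held the most members counted as higher, 10 of 20 (50%), with 18 of 20 positive and a median of 0.19. Trf, the transferrin gene, which these cells express strongly, had 23244, 25471 and 28852 normalized counts in defeated libraries, against 16873, 22050 and 25365 in control libraries (0.30 ± 0.08). The sets overlapped, with 3 defeated libraries inside the control range. The connexin gene Gjb1, whose protein forms gap junctions of myelinating cells, stood at 0.29 ± 0.11, and the protease gene Klk6 at 0.62 ± 0.24. Klk6 had 851, 1042 and 1176 in defeated libraries, against 266, 870 and 1036 in control libraries, and its lowest control stood well below every defeated library. The list's median was -0.01 in females and 0.30 in males. The count was 1 without GFP control replicate 2, 1 without the 3 libraries lowest in Th and 2 without the 3 highest in Tcf7l2, where the medians were 0.10 and 0.09. The list's sum ran from 484426 to 624575 in defeated and from 411274 to 582076 in control libraries.

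Oligodendrocyte precursor genes were positive for 11 of 14, with a median of 0.14 and 4 counted as higher. These were C1ql1, a complement-related secreted protein gene (0.33 ± 0.11), the lineage transcription factor genes Olig1 (0.16 ± 0.06) and Sox10 (0.22 ± 0.09), and the proteoglycan gene Cspg4 (0.12). C1ql1 had 1366, 1696 and 1912 normalized counts in defeated libraries, against 1120, 1354 and 1661 in control libraries. The count was 2 without GFP control replicate 2, 1 without the 3 libraries lowest in Th and 0 without the 3 highest in Tcf7l2. The median was 0.05 and 0.06 in those cases and 0.09 without GFP control replicate 3, and it was -0.06 in females and 0.20 in males. Astrocyte genes had a median of 0.03 over 16 with 1 counted as higher (S100b, 0.16 ± 0.07), and microglia genes one of 0.03 over 18 with 0 counted. The highest control mean of the microglia list was in Setd7 control replicate 4, and the median was 0.17 without it. Without the 3 libraries lowest in Th the astrocyte and microglia medians were 0.01 and -0.07, and without the 3 highest in Tcf7l2 -0.01 and -0.09, with 0 members counted.

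Genes of endothelial and mural cells were positive for 15 of 20, with a median of 0.12 and 4 counted as higher. They were the vascular growth factor receptor gene Flt1 (0.15 ± 0.05), the angiopoietin receptor family genes Tie1 (0.29 ± 0.12) and Tek (0.21 ± 0.10), and Cspg4. Flt1 had 4773, 5226 and 5847 normalized counts in defeated libraries, against 4529, 4918 and 5160 in control libraries. Without Setd7 defeat replicate 1 the count was 1 and the median 0.02, and the median was 0.25 with Setd7 and -0.01 with GFP virus. The count was 1 and the median 0.15 without the 3 libraries lowest in Th, and without the 3 highest in Tcf7l2 they were 2 and 0.14. Setd7 defeat replicate 1 also held the highest meningeal values. Meningeal fibroblast genes were positive for 16 of 16, with a median of 0.33 and 0 counted, and the median was -0.15 without it. The median was 1.08 with Setd7 and -0.16 with GFP virus, and 1.11 in females and -0.13 in males. It was 0.53 without GFP control replicate 3 and 0.58 without Setd7 defeat replicate 2. It was 0.56 without the 3 libraries lowest in Th and 0.64 without the 3 highest in Tcf7l2, with 2 counted as higher in each case. Their sum ran from 5792 to 31363 in defeated and from 5971 to 10212 in control libraries. Choroid plexus genes were split, with 6 of 11 positive and 5 negative, and had a median of 0.39. The 2 counted as higher were Sostdc1 (0.60 ± 0.21) and Slc4a5 (0.69 ± 0.30). The median was 0.12 without Setd7 defeat replicate 1 and 0.18 without GFP defeat replicate 4, and it was 0.42 in females and 0.00237 in males. Without the 3 libraries lowest in Th it was 0.50, with 2 counted as higher and 1 as lower, and without the 3 highest in Tcf7l2 0.56, with 1 counted as higher. Of 12 blood cell genes, 4 were tested and 1 (25%) was counted as higher, with a median of 0.36. The median was 0.22 without GFP defeat replicate 3 and 0.24 without Setd7 defeat replicate 2. It was 0.18 without the 3 libraries lowest in Th and 0.29 without the 3 highest in Tcf7l2, with 0 counted in both cases.

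**Figure D4:**
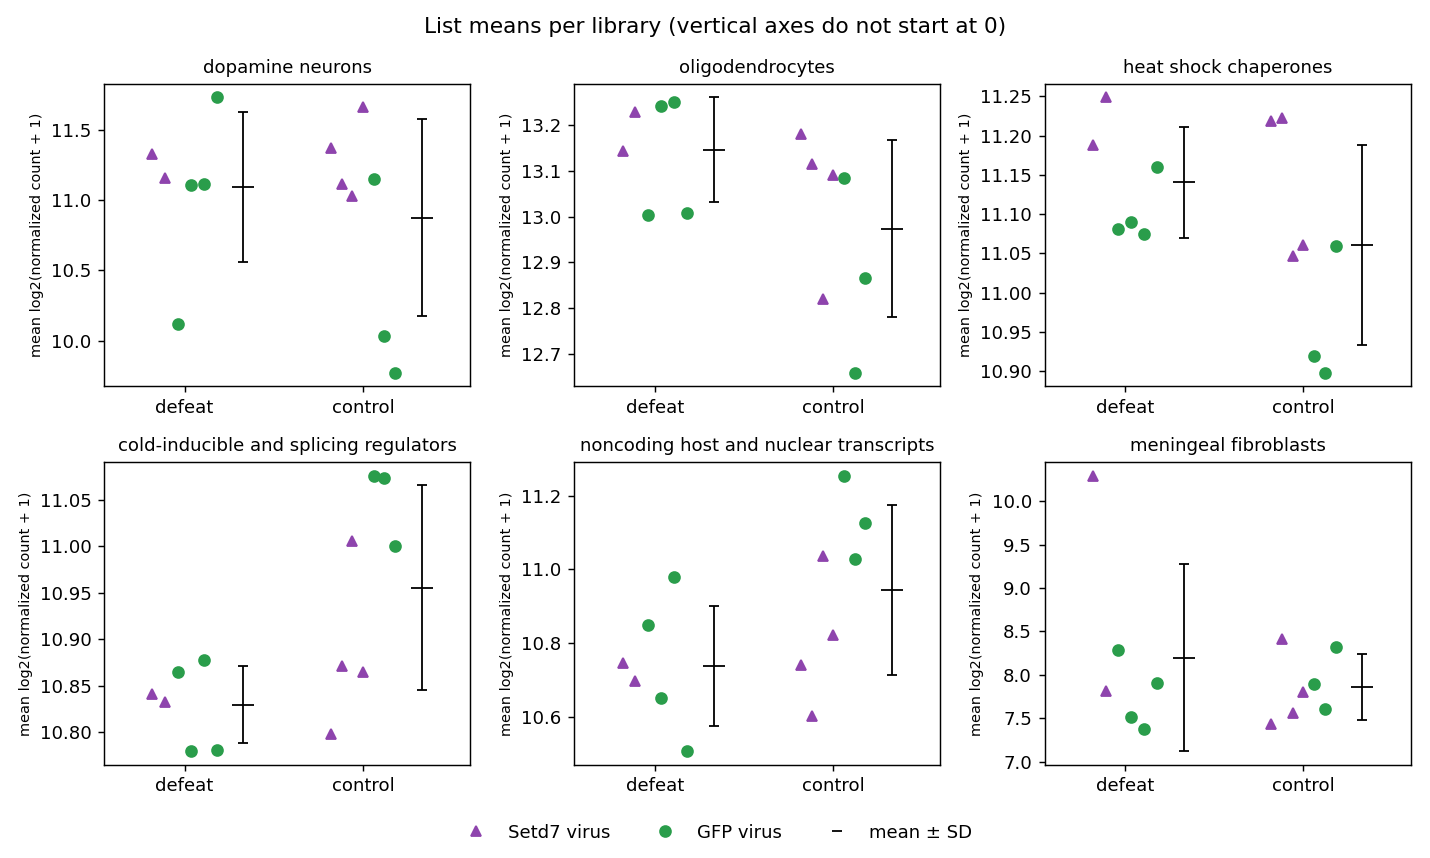
Mean log2(normalized count + 1) over the members of 6 lists, per library (vertical axes do not start at 0); defeated libraries are left of control libraries, triangles are Setd7 virus, circles GFP virus, and the bar is the mean ± SD. The splicing list lies between 10.78 and 10.88 in defeated and between 10.80 and 11.08 in control libraries, and Setd7 defeat replicate 1 stands alone in the meningeal list at 10.3.

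Long noncoding and host transcripts had mostly negative log2 fold changes. Of 20 tested, 17 were negative, the median was -0.20, and 8 (40%) were counted as lower and 0 as higher. Most of these RNAs stay in the nucleus, and several carry small RNAs in their introns or exons. Mirg, Meg3 and Rian, all members of this list, belong to the imprinted Dlk1-Dio3 domain on chromosome 12 and are expressed from the maternal copy. Of these, Rian was not among the 8 counted as lower. The stretch of Mirg holds 10 miRNA hairpins with 19 mature forms in RefSeq (GRCm38.p6) and that of Meg3 holds 3 mature forms. The mature miRNAs were not measured here. The following forms within Mirg and Meg3 show which small RNAs these hosts carry, 5′ to 3′, with the seed (bases 2 to 8) in capitals; miR-453 and miR-496a-5p share their seed.
mmu-miR-453: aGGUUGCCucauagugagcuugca
mmu-miR-496a-5p: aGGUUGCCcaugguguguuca
mmu-miR-154-5p: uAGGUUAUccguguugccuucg
mmu-miR-377-3p: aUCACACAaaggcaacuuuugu
mmu-miR-409-3p: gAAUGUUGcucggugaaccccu
mmu-miR-369-3p: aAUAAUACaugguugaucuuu
mmu-miR-410-3p: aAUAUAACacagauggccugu
mmu-miR-770-5p: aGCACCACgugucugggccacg

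Mirg had 192, 209 and 321 normalized counts in defeated libraries, against 203, 391 and 447 in control libraries (-0.64 ± 0.18). Most control libraries lay above most defeated ones, but the ranges overlapped. Meg3, a maternally expressed RNA at high level, had 26474, 43682 and 58154 in defeated libraries, against 35499, 68698 and 87245 in control libraries (-0.58 ± 0.21). Mir124a-1hg, the host of a neuronal miRNA, had 853, 1124 and 1428 against 1000, 1891 and 2781 (-0.70 ± 0.21). Its difference was -0.04 with Setd7 and -1.20 with GFP virus. Snhg11, a small nucleolar RNA host, had 13670, 20366 and 24619 in defeated libraries, against 17858, 34514 and 41461 in control libraries (-0.65 ± 0.20). Miat stood at -0.57 ± 0.20, Malat1, a very abundant RNA of nuclear speckles, at -0.37 ± 0.14, Snhg14 at -0.34 ± 0.12 and Gas5 at -0.25 ± 0.11. The list's median was -0.11 with Setd7 and -0.35 with GFP virus. Leaving out single libraries gave 6 to 9 counted as lower. Without the 3 libraries lowest in Th, 1 was counted and the median was -0.26, and without the 3 highest in Tcf7l2, 2 and -0.21.

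Cold-inducible RNA-binding and splicing regulator genes were also mostly negative, 25 of 30 with a median of -0.10, and 14 (46.7%) were counted as lower and 0 as higher. Part of this list came from genes seen to differ in an earlier result on the GFP libraries, so its direction is not independent evidence. Many of its members regulate their own transcripts through alternative splicing and retained introns. Tia1, which encodes an RNA-binding protein of stress granules and splice sites, had 1058, 1245 and 1399 normalized counts in defeated libraries, against 1257, 1590.1 and 1869 in control libraries (-0.34 ± 0.09). Rnpc3, a protein gene of the minor spliceosome, had 713, 839.9 and 973 in defeated libraries, against 809, 1130 and 1522 in control libraries (-0.47 ± 0.13). Both overlapped, with the GFP controls high. Rbm3, a cold-inducible RNA-binding protein gene, had 329.6, 373 and 413 against 346, 546 and 702 (-0.49 ± 0.14). The kinase gene Clk1, whose product phosphorylates SR splicing factors, had 1187, 1535 and 1751 against 1497, 2066 and 2577 (-0.41 ± 0.13). Pnisr stood at -0.36 ± 0.10, Luc7l3 at -0.24 ± 0.08 and the kinase gene Prpf4b at -0.17 ± 0.05. In the per-library means of the list, the 3 GFP controls and Setd7 control replicate 3 lay above every defeated library, and the other 3 Setd7 controls lay among them. The count was 9 (without GFP control replicate 1) to 15 with single libraries left out, 4 without the 3 lowest in Th and 5 without the 3 highest in Tcf7l2, and the medians then were -0.10 and -0.09.

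Heat shock chaperone genes were positive for 19 of 24, with a median of 0.07, and 6 (25%) were counted as higher and 0 as lower. Many heat shock genes, though not all in this list, are induced by the heat shock factor HSF1, which binds inverted repeats of the letters NGAAN. Hspa1a and Hspa1b, the inducible HSP70 genes, stood at 0.55 ± 0.17 and 0.67 ± 0.21. Hspa1a had 541, 914 and 1102 normalized counts in defeated libraries, against 389, 667 and 905 in control libraries, and Hspa1b had 465.8, 931 and 1162 against 351, 576 and 1042. The sets overlapped for both, and the pair share nearly identical sequence, so reads may be split between them. The small heat shock protein gene Hspb1 had 147, 187 and 242 in defeated libraries, against 111, 159 and 218 in control libraries (0.40 ± 0.14). The others counted were Hsp90ab1 (0.15 ± 0.05), Dnajb1 (0.19 ± 0.07) and Ahsa1 (0.16 ± 0.07), an HSP90 gene, an HSP40 co-chaperone gene and an HSP90 activator gene. The count was 5 to 7 with single libraries left out, 5 without the 3 libraries lowest in Th and 4 without the 3 highest in Tcf7l2, where the medians were 0.06 and 0.05.

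The promoters of Hspa1a, Hspa1b and Hspb1 are shown because these 3 had the largest differences of the 6. They run from 250 bases before to 50 bases after the start in RefSeq (GRCm38.p6), 5′ to 3′ on the gene's strand, with each GAANNTTC, which reads the same on both strands, in capitals. The windows are chr17:34972107-34972406 on the minus strand for Hspa1a, chr17:34959189-34959488 on the minus strand for Hspa1b and chr5:135887669-135887968 on the plus strand for Hspb1.
Hspa1a: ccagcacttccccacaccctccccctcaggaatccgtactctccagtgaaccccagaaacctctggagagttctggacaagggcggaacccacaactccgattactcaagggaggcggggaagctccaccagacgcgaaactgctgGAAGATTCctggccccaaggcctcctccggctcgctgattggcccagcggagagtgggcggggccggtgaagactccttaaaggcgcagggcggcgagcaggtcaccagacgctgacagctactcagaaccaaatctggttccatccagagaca
Hspa1b: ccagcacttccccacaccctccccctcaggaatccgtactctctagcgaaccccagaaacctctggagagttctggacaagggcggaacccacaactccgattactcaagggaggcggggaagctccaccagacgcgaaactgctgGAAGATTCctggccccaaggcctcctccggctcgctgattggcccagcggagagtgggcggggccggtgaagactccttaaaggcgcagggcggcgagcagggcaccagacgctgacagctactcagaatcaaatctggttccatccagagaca
Hspb1: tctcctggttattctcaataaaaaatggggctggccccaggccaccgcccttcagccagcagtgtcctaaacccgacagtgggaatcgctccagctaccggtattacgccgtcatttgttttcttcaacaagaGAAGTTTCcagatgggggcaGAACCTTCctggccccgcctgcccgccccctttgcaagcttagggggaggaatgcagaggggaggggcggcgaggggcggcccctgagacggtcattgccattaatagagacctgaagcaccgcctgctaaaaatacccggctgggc

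Of the 24 heat shock genes 17 had a promoter in the table, and 10 of these (58.8%) held the letters, against 2442 of 27025 genes (9.04%). Within the list the letters were in 3 of the 5 genes counted as higher that had a promoter and in 7 of the other 12. A match is a description of the letters only. The windows of Hspa1a and Hspa1b had the same letter at 98.7% of positions.

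Endoplasmic reticulum stress genes were positive for 21 of 23, with a median of 0.09 and 3 counted as higher. They were Pdia4 (0.22 ± 0.08), the transcription factor gene Xbp1 (0.17 ± 0.07) and the chaperone gene Hspa5 (0.17 ± 0.08), which had 9572, 11294 and 12904 normalized counts in defeated libraries, against 8171, 10043 and 12446 in control libraries. The sets overlapped, and the count was 0 without GFP control replicate 2. It was 1 without the 3 libraries lowest in Th and 0 without the 3 highest in Tcf7l2, with medians of 0.06 and 0.07. Cytosolic ribosomal protein genes were positive for 37 of 40, with a median of 0.10 and 4 counted as higher, among them Rps6 (0.17 ± 0.07), Rps18 (0.28 ± 0.12) and Rps3 (0.18 ± 0.08). The count was 0 without GFP defeat replicate 3, 3 without the 3 libraries lowest in Th and 2 without the 3 highest in Tcf7l2, where the medians were 0.13 and 0.11. The median was 0.03 with Setd7 and 0.18 with GFP virus. These families have many processed copies in the genome, so their counts are uncertain. Nuclear oxidative phosphorylation genes were positive for 30 of 36, with a median of 0.05 and 2 counted as higher, Ndufa2 (0.34 ± 0.12) and Ndufs7 (0.14 ± 0.06), both of complex I. This median was just below 0 in 2 settings, at -0.00215 without GFP control replicate 1 and -0.00428 with the Setd7 libraries alone. It was 0.11 without the 3 libraries lowest in Th and 0.09 without the 3 highest in Tcf7l2, with 5 and 4 counted as higher. Cholesterol synthesis genes were positive for 19 of 21, with a median of 0.09 and 0 counted. The median was 0.06 without GFP defeat replicate 4, 0.05 without GFP control replicate 1 or 3, 0.10 without the 3 libraries lowest in Th and 0.08 without the 3 highest in Tcf7l2.

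Hormonal stress genes showed no common direction. Of 23 glucocorticoid response genes 13 were positive, with a median of 0.07, 1 counted as higher and 2 as lower. Hif3a, a hypoxia-inducible factor gene, had 216, 339.6 and 361 normalized counts in defeated libraries, against 326, 465 and 560.2 in control libraries (-0.52 ± 0.15). The sets overlapped, with most control libraries above every defeated one. The metallothionein gene Mt2 stood at -0.37 ± 0.16 and the transcription factor gene Cebpd at 0.47 ± 0.17. Fkbp5, a co-chaperone gene of the glucocorticoid receptor and a standard readout of it, had 682, 836 and 997 in defeated libraries, against 721, 828 and 1056 in control libraries (-0.01 ± 0.10). The median of the list ran from 0.01 (without Setd7 control replicate 4) to 0.12 (without GFP defeat replicate 2) with single libraries left out. It was 0.13 without the 3 libraries lowest in Th and 0.12 without the 3 highest in Tcf7l2, with 1 counted as higher and 2 as lower in each case. Genes of the corticotropin releasing factor system and steroid receptors had a median of 0.00 over 14, 7 of them positive, with 0 counted, and the median was 0.03 with 1 counted as higher when either set of 3 libraries was left out.

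Immediate early genes, which neurons switch on within minutes of activity, had a median of -0.03 over 24, with 11 positive and 2 counted as higher. Fosl2 had 540.2, 623 and 689 normalized counts in defeated libraries, against 333, 491 and 779 in control libraries (0.35 ± 0.16), and Jun stood at 0.15 ± 0.07. The median was 0.05 without the 3 libraries lowest in Th and 0.05 without the 3 highest in Tcf7l2, with 1 counted as higher in each case. Clock genes had a median of -0.06 over 20, with 2 counted as lower, the repressor gene Bhlhe40 (-0.20 ± 0.08) and the Clock paralogue gene Npas2 (-0.43 ± 0.19). Neither was counted without the 3 libraries lowest in Th or the 3 highest in Tcf7l2, and the medians were then 0.04 and 0.01. With single libraries left out, up to 6 of the 20 clock genes were counted as lower and 0 as higher.

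Signalling genes of neurons sat near the background. Neurotrophins and their receptors had a median of 0.07 over 11 with 0 counted, and neuropeptides and opioids one of 0.03 over 20 with 1 counted as higher, the nociceptin precursor gene Pnoc (0.25 ± 0.09). Pnoc had 589, 641 and 718 normalized counts in defeated libraries, against 453, 553 and 663 in control libraries. Dopamine and serotonin receptor genes had a median of 0.06 over 16, and the 1 counted as higher was the lowly expressed Drd3, with 27.0, 34.5 and 43.3 against 9.83, 20.5 and 29.99 (0.77). Glutamate and GABA receptor genes had a median of -0.05 over 27 and synaptic vesicle genes one of -0.04 over 24, with 0 counted in either. Potassium channel genes had a median of -0.03 over 29, with Kcna3 counted as higher (0.27 ± 0.10) and Kcnt1 as lower (-0.28 ± 0.12). Sodium, calcium and HCN channel genes were negative for 15 of 22, with a median of -0.12 and 1 counted as lower, the T-type calcium channel gene Cacna1g (-0.25 ± 0.11). The median of this list was -0.05 without GFP defeat replicate 4, -0.07 without GFP control replicate 2 and -0.02 without GFP control replicate 3. It was -0.01 without the 3 libraries lowest in Th and -0.00917 without the 3 highest in Tcf7l2, with 0 counted as lower in either case. Perineuronal net genes had a median of -0.01 over 15, with the protease gene Adamts4 counted as higher (0.19 ± 0.08) and the hyaluronan synthase gene Has1 as lower (-0.39 ± 0.17).

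Chromatin genes sat near 0 as well. Genes of histone H3 lysine 4 methylation, the mark that SETD7 writes, had a median of -0.02 over 22, and the 1 counted as lower was Setd1a (-0.15 ± 0.07), a methyltransferase gene with 2157, 2361 and 2610 normalized counts in defeated libraries, against 2346, 2581 and 2941 in control libraries. Genes of histone acetylation and DNA methylation had a median of -0.03 over 20, with the deacetylase gene Hdac11 counted as higher (0.12 ± 0.05) and the dioxygenase gene Tet3 as lower (-0.10 ± 0.04). Interferon and antigen presentation genes had a median of 0.05 over 26 with 0 counted, and reactive glia and cytokine genes one of 0.03 over 20 with 1 counted as lower, the low-count gene Timp1 (-0.69). The highest values of both of these lists were in Setd7 control replicate 4, and without it the medians were 0.38 and 0.19. Over the lists of neuronal signalling, perineuronal nets, chromatin, interferon and reactive glia, the medians ran from -0.18 to 0.06 without the 3 libraries lowest in Th and from -0.18 to 0.07 without the 3 highest in Tcf7l2. At most 1 member of a list was then counted in either direction. The neuropeptide list had the lowest median in both cases. With single libraries left out, up to 5 of the 22 histone H3 lysine 4 methylation genes were counted as lower and 0 as higher. Up to 6 of the 26 interferon and antigen presentation genes were counted as higher and 0 as lower.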

How the data were processed

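RNA of punched VTA tissue was extracted with an RNeasy Micro kit and libraries were made with a TruSeq RiboZero kit, per the labels' protocols. The submitters' processing notes name Bowtie2, featureCounts, DESeq2 and the GRCm39 build; versions are not given in the sources used here. The deposited values are a signal: the authors divided read counts by DESeq2 size factors, for 26264 genes in 13 libraries. Dividing each library by its smallest value above 0 gave back whole reads for 341432 of 341432 values (100%, tolerance 0.01). Their totals ran from 26.5 to 50.8 M per library.

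The filter of 10 normalized counts in at least 2 libraries kept 17755 genes and left out 8509, of which 3670 had no count in any library. Defeat was tested with limma-trend (limma 3.58.1, R 4.3.3) using log2(normalized count + 1), virus being the other term. Tests were two-sided, p-values were Benjamini-Hochberg adjusted across every gene tested, and the threshold was 0.05. Fold changes are on that log2(value + 1) scale, which understates the change of low genes. The prior degrees of freedom were 4.82. The fit was tested on simulated data. edgeR 4.0.16 (quasi-likelihood, TMM scaling) and DESeq2 1.42.0 (Wald test) were run with the same design on the recovered reads. Interaction terms of defeat with sex and with virus were fitted separately.

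Pearson's r between replicates was 0.971 to 0.984 across genes, and no pair agreed within sampling noise (chi-square over its degrees of freedom 16.2 to 51.5), so none was treated as a duplicate. To be named by rule, a gene had to average 30 normalized counts and have no predicted or RIKEN name, and Xist, Tsix and Y-linked genes were left out. They were the 12 with the smallest p in each direction, because fewer than 5 passed the threshold. To these were added up to 5 per direction whose groups did not overlap, the 3 members of each list with the smallest p, the 5 genes of each interaction with the smallest p, any gene called by edgeR or DESeq2, and Setd7, Th, Slc6a3 and Tcf7l2. Other members of lists and of the Frizzled family were named after their values were seen. Single results of a few list members are not reported here. The 35 gene lists held 708 genes between them; part of the cold-inducible and splicing list came from genes seen to differ in an earlier result on the GFP libraries, and the others were written from general knowledge. The comparison, the lists and the alternatives that leave out 3 libraries were chosen with earlier results of these data known. The alternatives were other pseudocounts, filters, covariates, scalings and tests, each sex, each virus, and each library left out. Of 26264 gene names, 26222 matched the RefSeq gene table of GRCm38.p6, from which only sequences, gene order and chromosome were taken.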

Additional observations from a re-analysis of the deposited data

Results flagged for a closer look

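In 26 of 300 sets of defeated or control libraries examined (8.67%), 1 library stood far from the others. Chance gives about 1 in 20 only for independent sets of normally spread values. These sets share libraries and some genes, and many of their genes were chosen by p, so the share does not show an excess over chance. Among normalized counts in defeated libraries, Th and Slc6a3 were lowest in GFP defeat replicate 1 at 2539 and 5051, against at least 10298 and 21894 in the others. Tcf7l2 was highest in GFP defeat replicate 4 at 6575, against at most 1449. The meningeal transporter genes Slc22a6 and Slc13a4 were highest in Setd7 defeat replicate 1 at 929 and 1512, against at most 88.9 and 136. Taf1d and Nup37 were lowest in GFP defeat replicate 2 at 84.2 and 45.7, and Col24a1 in Setd7 defeat replicate 2 at 17.6. L3mbtl2 and Gas5 were highest in GFP defeat replicate 3 at 1305 and 231.

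Among normalized counts in control libraries, Stmn1 and Cspg4 were lowest in GFP control replicate 3 at 2536 and 1662, and Pisd in GFP control replicate 1 at 1416. Cacna1g and Npas2 were highest in GFP control replicate 2 at 7414 and 639, and Mt2 in Setd7 control replicate 2 at 1574.

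List means are on the log2(normalized count + 1) scale. The thalamus list was highest in GFP defeat replicate 4 at 10.32 and, among controls, in GFP control replicate 2 at 11.23. In Setd7 defeat replicate 1 the endothelial and mural list reached 10.39 and the meningeal list 10.30. The cholesterol synthesis list was highest in GFP defeat replicate 4 at 10.49. Setd7 control replicate 4 held the highest control means of the microglia (10.43), blood cell (8.59), interferon and antigen presentation (10.28) and reactive glia (8.29) lists. The dopamine and serotonin receptor list was lowest in Setd7 control replicate 1 at 7.79. What sets these libraries apart was not tested.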

How the results depend on the processing

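No gene passed limma under the other pseudocounts, filters, covariates, scalings and weights, within a sex or virus, or by edgeR. DESeq2 called 3 higher and 2 lower genes. With single libraries left out, limma called 0 to 1 higher gene (Sox1ot, without GFP defeat replicate 4) and 0 lower. The unadjusted counts of 486 higher and 623 lower genes were 281 and 411 with no covariate, 240 and 200 with the Setd7 libraries alone, 263 and 363 without the 3 libraries lowest in Th, and 260 and 323 without the 3 highest in Tcf7l2; these last alternatives were added with the data known. Upper-quartile scaling gave 406 and 676, and 37.5% higher in place of 43.8%. Leaving out single libraries gave 310 (without GFP control replicate 2) to 840 (without Setd7 defeat replicate 2) higher and 449 to 831 lower genes. The sex interaction had 0 to 1 adjusted and 557 to 1226 unadjusted genes, and the virus interaction 0 to 14 adjusted genes, the 14 arising without Setd7 defeat replicate 2, which leaves a lone library assumed to vary like the others. The cause of these shifts was not tested.

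Of the 24 genes with the smallest p, 0 of 384 alternative values of the higher and 0 of 384 of the lower genes changed sign. The same libraries had chosen these genes, so few changes of sign could arise, and this is a description only. Setd7 (0.07) was -0.60 with no covariate, -0.0395 by edgeR and -0.0413 by DESeq2, -0.46 in females, -0.14 with GFP, and -0.16 to 0.18 with single libraries left out. Th, Slc6a3, Sox10, Kcnt1 and Fkbp5 in females alone stood at -0.43, -0.30, -0.0421, 0.00612 and 0.11, and Pisd in males at -0.00793. With the Setd7 libraries alone Th, Slc6a3, Tcf7l2, Ntsr1, Olig1, Kcna3, Hdac11 and Fkbp5 stood at -0.17, -0.17, 0.21, -0.12, -0.00546, -0.0426, -0.00994 and 0.0738. Without the 3 libraries lowest in Th, Tcf7l2 was 0.25 and Fkbp5 0.11; without the 3 highest in Tcf7l2, Th, Slc6a3, Ntsr1 and Fkbp5 were -0.32, -0.26, -0.0789 and 0.0818. Fkbp5 was 0.00100 with sex as a further covariate and -0.0683 to 0.077 with single libraries left out. No paired analysis was possible because the labels give the groups no shared replicate numbers. With 6 and 7 libraries of mixed virus and sex, differences within the spread of a gene were not detectable.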
